A study of Mus musculus with 7 samples.

Results

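The variable genes of the immunoglobulin kappa light chain (Igkv genes) were followed in RNA of sorted bone marrow (BM) progenitors. All rows whose symbol starts with Igkv and whose value was above 0 in at least 1 library were taken. This gave 117 of the 160 Igkv genes among 48440 rows, 99 annotated as V genes and 18 as V pseudogenes, and the other 43 were at 0 in every library. The cells were Lin-Sca1+cKit+ (LSK) cells, the gate that holds hematopoietic stem cells and multipotent progenitors, sorted from BM chimeric mice on day 77 after transplantation. C57BL/6 recipients had been lethally irradiated (9.5 Gy) and given unfractionated nucleated BM of wild-type donors (4 libraries) or of donors with a constitutive, endonuclease-mediated PROSER1 KO (3 libraries). The sources used here name no donor marker for the sort, so that cells of the donor and of the recipient cannot be told apart by the gate. The libraries held 33143619 to 45140743 read pairs on genes. The targeted gene, Proser1, was at 2019 to 2153 (wild-type) and 2338 to 2464 (PROSER1 KO) normalized counts and thus not lower in PROSER1 KO, so that the direction of each difference rests on the labels.

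A B cell builds its kappa light chain gene by joining 1 Igkv gene to a joining segment (Igkj) in front of the constant exon (Igkc), and a plasma cell then transcribes that joined gene at very high levels. The Igkv genes used in a sample therefore describe which light chains its B-lineage cells have made. Unrearranged Igkv genes give little RNA, and neither a stem cell nor a multipotent progenitor makes light chains. B-1 cells, which arise early in life and make natural antibodies, are known for antibodies to phosphatidylcholine built from Ighv11-2 with Igkv14-126 or from Ighv12-3 with Igkv4-91.

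The V exons of the genes on which the results turn are shown from GENCODE release M21 (GRCm38), each 5′ to 3′ on the strand of the gene. Capitals mark the bases that differ from the closest other Igkv V exon, since a read pair that covers none of them matches both exons. Other Igkv genes are not marked, so that a read pair over a capital may still match one of them. Igkv14-126 (ENSMUSG00000094345), the largest member in every library, lies at chr6:67896345-67896642 on the forward strand, and Igkv14-111 is its closest relative (90.9% identity, 27 differing bases) at chr6:68256572-68256869 on the same strand.
Igkv14-126: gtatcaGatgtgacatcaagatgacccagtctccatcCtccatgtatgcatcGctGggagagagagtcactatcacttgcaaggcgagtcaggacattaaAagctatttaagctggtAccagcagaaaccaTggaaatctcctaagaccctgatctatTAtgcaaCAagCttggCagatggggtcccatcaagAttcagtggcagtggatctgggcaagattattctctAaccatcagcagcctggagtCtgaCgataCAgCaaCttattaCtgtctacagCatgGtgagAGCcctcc
Igkv14-111: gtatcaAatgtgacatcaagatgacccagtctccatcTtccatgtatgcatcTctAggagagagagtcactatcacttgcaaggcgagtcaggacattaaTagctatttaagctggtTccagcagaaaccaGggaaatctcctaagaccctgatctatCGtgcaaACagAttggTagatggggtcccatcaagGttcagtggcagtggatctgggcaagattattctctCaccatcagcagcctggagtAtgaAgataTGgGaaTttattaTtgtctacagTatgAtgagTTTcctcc
Igkv5-39 and Igkv1-135 are shown because their shares did not overlap between the groups in opposite directions. Igkv5-39 (ENSMUSG00000076569) lies at chr6:69900424-69900721 on the reverse strand and is closest to Igkv5-45 (91.6% identity). For Igkv1-135 (ENSMUSG00000096336), closest to Igkv1-133 (96.5%), the first 300 of 313 bases are given, at chr6:67610196-67610495 on the forward strand.
Igkv5-39: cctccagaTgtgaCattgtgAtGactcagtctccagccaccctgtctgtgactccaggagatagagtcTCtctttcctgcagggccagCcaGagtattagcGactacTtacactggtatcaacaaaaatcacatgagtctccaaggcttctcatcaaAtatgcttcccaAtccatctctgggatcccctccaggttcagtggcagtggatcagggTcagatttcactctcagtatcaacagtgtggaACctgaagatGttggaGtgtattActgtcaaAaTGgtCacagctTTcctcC
Igkv1-135: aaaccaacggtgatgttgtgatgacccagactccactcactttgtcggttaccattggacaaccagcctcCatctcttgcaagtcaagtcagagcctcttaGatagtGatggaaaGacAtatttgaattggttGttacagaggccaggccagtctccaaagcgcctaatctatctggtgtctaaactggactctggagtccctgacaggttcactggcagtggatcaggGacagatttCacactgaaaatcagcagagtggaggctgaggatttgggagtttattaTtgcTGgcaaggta
Igkv4-80 and Igkv4-81 are shown because they were the members that passed the test. Both lie on the reverse strand, Igkv4-80 (ENSMUSG00000076540) at chr6:69016558-69016856 and the first 300 of 309 bases of Igkv4-81 (ENSMUSG00000076539) at chr6:68990767-68991066. The closest relatives were Igkv4-57 (91.7% identity) and the pseudogene Igkv4-75 (92.2%).
Igkv4-80: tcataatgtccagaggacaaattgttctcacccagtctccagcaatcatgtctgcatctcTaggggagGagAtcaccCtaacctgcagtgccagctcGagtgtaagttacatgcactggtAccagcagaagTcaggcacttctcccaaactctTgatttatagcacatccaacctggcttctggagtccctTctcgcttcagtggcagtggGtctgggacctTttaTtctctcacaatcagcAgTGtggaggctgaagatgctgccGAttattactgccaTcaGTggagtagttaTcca
Igkv4-81: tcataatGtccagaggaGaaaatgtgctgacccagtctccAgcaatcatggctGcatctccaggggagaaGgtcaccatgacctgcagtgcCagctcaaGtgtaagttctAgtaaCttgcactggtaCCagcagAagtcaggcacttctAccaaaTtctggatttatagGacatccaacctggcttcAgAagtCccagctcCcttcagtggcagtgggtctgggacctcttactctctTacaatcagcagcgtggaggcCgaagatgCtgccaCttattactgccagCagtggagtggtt
Of the 117 members, 53 had a V exon with at least 95% identity to another Igkv gene and 30 shared an unbroken run of at least 100 bases with one. Values of such genes are uncertain where reads cover no differing base.

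Igkv RNA was abundant in the LSK libraries. The summed normalized counts of the members were 487830, 419129, 309242 and 766286 in the wild-type libraries (replicates 1 to 4, in this order throughout). Those of the PROSER1 KO libraries (replicates 1 to 3) were 415466, 356580 and 531922. The groups overlapped, with wild-type replicate 4 highest and wild-type replicate 3 lowest, with a mean of 495622 ± 194858 (SD, n = 4) for wild-type and of 434656 ± 89232 (SD, n = 3) for PROSER1 KO. As a share of all read pairs on genes, the members held 0.812% to 1.88% in wild-type and 0.934% to 1.36% in PROSER1 KO. In bulk RNA, fewer cells of a type and less RNA per cell cannot be told apart.

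The Igkv signal varied less relative to Igkc and to Jchain, the joining chain of secreted IgM and IgA, than it did by itself (2.48-fold). Igkc had normalized counts of 588445, 525555, 379411 and 911098 in wild-type, against 518193, 414733 and 664553 in PROSER1 KO. The Igkv sum per Igkc was 0.821 ± 0.0187 (SD, n = 4) in wild-type and 0.821 ± 0.0339 (SD, n = 3) in PROSER1 KO, with a range of 0.797 to 0.860, while Igkc itself varied 2.40-fold. How read pairs that reach from a V exon into Igkc were counted is not given in the sources used here. Relative to the joining segments, which were low (summed Igkj 1197 to 4100), the Igkv sum ranged more widely, from 187 in wild-type replicate 4 to 298 in PROSER1 KO replicate 2. The Igkv sum per Jchain ranged from 1.85 to 2.08, while Jchain varied 2.54-fold, from 151607 to 384345. The lambda variable genes, which serve the other light chain, made up 7.05% to 12.9% of all light chain V signal in wild-type and 6.39% to 7.75% in PROSER1 KO, and the groups overlapped.

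Markers of antibody-secreting cells were present in every library, and their part in the results was not tested. All 13 genes of a plasma cell list were above 0 in every library, with a summed level of 179444 to 445628 in wild-type and 208611 to 310393 in PROSER1 KO. Most of this sum was Jchain, at 151607 to 384345 in wild-type and 179939 to 269328 in PROSER1 KO. Wild-type replicate 4, the library with the most Igkv signal, was highest in 12 of the 13 genes, the exception being Ccr10 (highest in PROSER1 KO replicate 3), and wild-type replicate 3, the library with the least, was lowest in 8. Between the groups, 0 of the 13 were called by limma, edgeR or DESeq2, and 0 had an unadjusted p-value under 0.05 in limma. Sdc1, the plasma cell surface protein CD138, ranged from 2757 to 6121, with wild-type replicate 4 highest and wild-type replicate 3 lowest, as for the Igkv sum. Ighm was at 687394 to 1890105 and Igha, the constant gene of IgA, at 100887 to 745391. The mature B cell surface gene Ms4a1 was at 278 to 799. The lineage antibodies of the gate include an antibody to B220, and its part in these values was not tested. Ms4a1 is 1 of 12 genes of a B-lineage list, which ranged from Cr2 (9.01 to 31.7) to Cd24a (9698 to 11557), with Cd79a at 1006 to 2586. Of these 12, 0 were called by limma, edgeR or DESeq2. In limma, 3 had an unadjusted p-value under 0.05, against 9.73% of all tested genes. Fcer2a was lower in PROSER1 KO, and Pax5 and Ebf1 were higher by their means, with overlap. Of the genes that define the gate, Kit was at 25535 to 32357 and varied 1.27-fold, and Ly6a, which encodes Sca1, was at 3961 to 6822 and varied 1.72-fold, with wild-type replicate 4 highest. Each library also held both Ddx3y, a Y-linked gene, at 3890 to 4421 and Xist, which is transcribed in female cells, at 1012 to 3003, with wild-type replicate 4 again highest in Xist. The part of the recipient's cells in the Igkv signal was not tested.

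**Figure D1:**
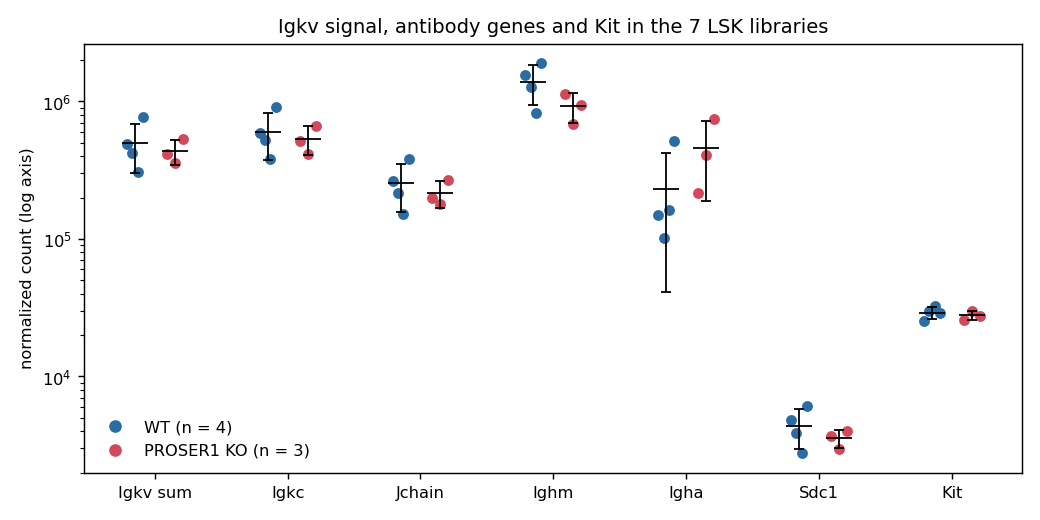
Normalized counts (log axis) of the Igkv sum and of 6 single genes in the 4 wild-type and 3 PROSER1 KO libraries, with the mean and SD of each group as bars. The Igkv sum, Igkc, Jchain and Sdc1 share their highest library, wild-type replicate 4, and Kit varies 1.27-fold over the 7 libraries (Ly6a, not drawn, varies 1.72-fold).

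Other genes of the pathway were taken from lists, and 0 of their genes passed limma's test. Of 12 V(D)J recombination and pre-B genes, the 3 with an unadjusted p-value under 0.05 in limma were Rag1, a subunit of the recombinase, and Vpreb2 and Igll1, which encode parts of the surrogate light chain. Rag1 had normalized counts of 1240, 783, 744 and 686 in wild-type, against 2920, 914 and 1182 in PROSER1 KO, and the groups overlapped (adjusted p = 0.512 from limma). Igll1 had 21.2, 15.3, 12.6 and 6.96 in wild-type, against 70.9, 30.5 and 31.7 in PROSER1 KO, with every PROSER1 KO library higher (limma, log2 fold change 1.58 ± 0.46 SE, adjusted p = 0.288). Of 13 regulators of kappa transcription, among them Pou2af1, Irf4, Ikzf3 and Tcf3, 0 had an unadjusted p-value under 0.05 in limma. The same holds for the 6 kappa constant and joining genes, and neither edgeR nor DESeq2 called a gene of these 3 lists.

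A few genes held most of the Igkv signal. The 10 largest genes of a library held 50.5% to 64.4% of it, and 22 to 26 genes were over 1%. At the other end, 17 members stayed under 0.01% in each library, 7 were above 0 in 1 library only and 6 never exceeded 3 read pairs, the limit that a count of 0 allows. Pseudogenes together held 0.0119% to 0.241%. The effective number of genes (inverse Simpson index, the number of equally used genes that would give the same concentration) was 17.7, 15.2, 10.1 and 17.8 in wild-type, against 14.8, 18.6 and 15.8 in PROSER1 KO. Wild-type replicate 3 was the most concentrated library, and the groups overlapped.

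Igkv14-126, the known light chain partner of Ighv11-2, was the largest member in all 7 libraries, also per kb of exon. Its shares of the Igkv signal were 19.7%, 20.4%, 28.2% and 18.7% in wild-type, against 21.0%, 16.5% and 19.4% in PROSER1 KO. The groups overlapped, and the levels gave a log2 fold change of -0.32 ± 0.22 SE with limma (adjusted p = 0.680). The next member per library held 4.82% to 9.53% of the signal and was not the same gene throughout.

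The heavy chain gene Ighv11-2 was likewise the largest Ighv gene in all 7 libraries. It held 15.5%, 16.8%, 21.4% and 14.1% of the Ighv signal in wild-type, against 17.7%, 12.4% and 14.1% in PROSER1 KO. The 7 libraries stood in the same order by the share of Ighv11-2 and by that of Igkv14-126, from PROSER1 KO replicate 2 up to wild-type replicate 3. Over the 7 libraries, Pearson's r was 0.956 (exact permutation test over pairings, two-sided p = 0.000198, the smallest that 7 libraries allow, adjusted p = 0.000397 over 2 relations) and Spearman's rho was 1 (exact permutation p = 0.000397, adjusted p = 0.000794). Without the 2 libraries farthest from the median Ighv11-2 share, wild-type replicate 3 and PROSER1 KO replicate 2, r was 0.966. Among the 81 members above 0 in every library, Igkv14-126 had the highest r with Ighv11-2, and Igkv1-122 came next at 0.723. This pair was chosen after values had been seen, and bulk RNA does not show which heavy and light chains come from the same cell.

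The other known pair was far smaller. Igkv4-91 held 0.921%, 0.256%, 0.166% and 0.552% of the Igkv signal in wild-type, against 1.05%, 1.49% and 1.14% in PROSER1 KO, with every PROSER1 KO library above every wild-type library. Its level did not pass the test (limma, log2 fold change 1.53 ± 0.67 SE, adjusted p = 0.508). Ighv12-3 held 0.162% to 0.799% of the Ighv signal. The shares of the pair had r = 0.767 (exact permutation p = 0.0448, adjusted p = 0.0448) and rho = 0.75 (exact permutation p = 0.0663, adjusted p = 0.0663), and without wild-type replicates 2 and 3 r fell to 0.180, so that the relation rests on those libraries. Among the 81 members Igkv4-91 came second by r, behind Igkv4-57-1 at 0.860. Each group alone held too few libraries for a correlation.

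**Figure D2:**
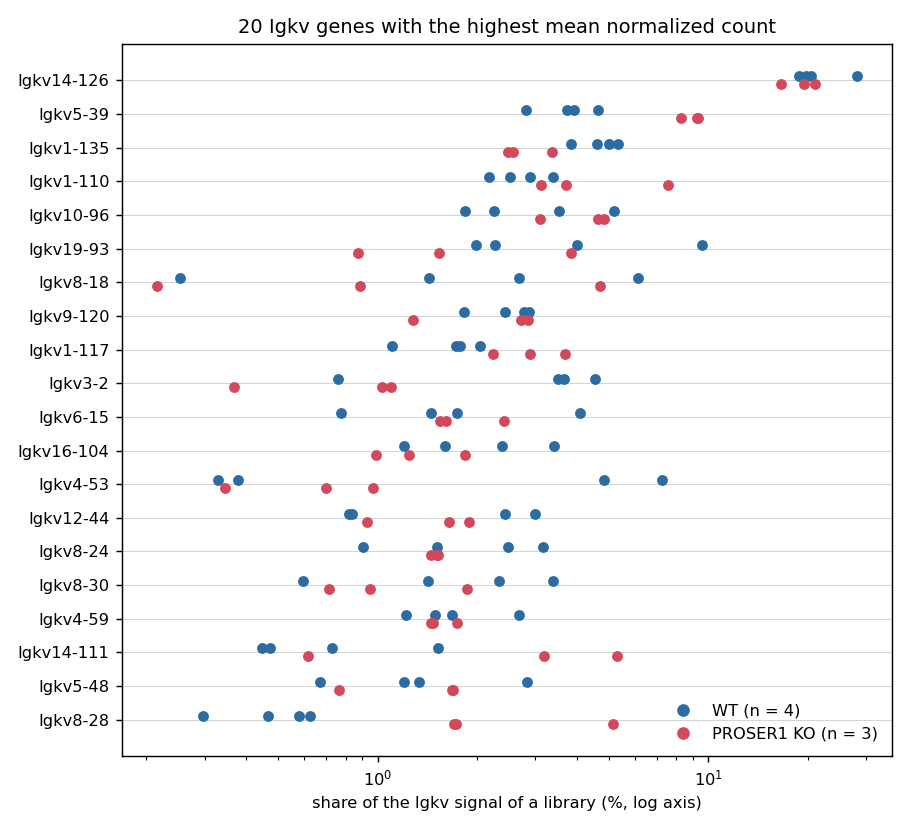
Share of the Igkv signal (%, log axis) in each library for the 20 members with the highest mean normalized count, with wild-type and PROSER1 KO libraries as separate points. Igkv14-126 stands at 16.5% to 28.2%, Igkv5-39 lies higher in the 3 PROSER1 KO libraries, and genes such as Igkv8-18 and Igkv4-53 vary more than 10-fold within a group.

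Apart from Igkv14-126, 9 genes were among the 3 largest of at least 1 library, and most of these varied widely within a group. Igkv4-53 held 4.82% and 7.26% in wild-type replicates 1 and 3 but 0.328% and 0.378% in wild-type replicates 2 and 4, and 0.345% to 0.969% in PROSER1 KO. Igkv19-93, the only gene of its family, reached 9.53% in wild-type replicate 2 and was at 0.872% to 4.01% in the others. Igkv8-18 was at 6.13% in wild-type replicate 4 and 4.70% in PROSER1 KO replicate 2, against 0.216% in PROSER1 KO replicate 3. For these 3 genes the groups overlapped.

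Igkv14-111 held 5.29% and 3.17% in PROSER1 KO replicates 2 and 3 and 0.447% to 1.52% in the other 5 libraries. Igkv8-19 was at 5.47% in PROSER1 KO replicate 1 and at 0.511% to 1.68% elsewhere. Igkv1-110 ranged from 2.17% to 3.38% in wild-type and from 3.13% to 7.54% in PROSER1 KO, and Igkv10-96 from 1.84% to 5.19% and from 3.09% to 4.82%. For each of these 4 genes the groups overlapped, and their adjusted p-values from limma lay between 0.532 and 0.930.

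Some members stood out in a single library. Among genes over 1%, 4 had a share at least 3 times that of the next library, and they are named after their values were seen. They were Igkv8-19 (5.47%) and Igkv6-20 (4.23%) in PROSER1 KO replicate 1, Igkv3-10 (2.43%) in wild-type replicate 4 and Igkv6-32 (2.11%) in wild-type replicate 1. PROSER1 KO replicate 1 also had the highest sum over 8 T cell markers, 2346, against 425 to 1009 in the other libraries. The 8 genes did not all go this way. Cd3g (697), Trbc1 (722), Cd3d, Cd3e and Trbc2 were clearly highest in that library. Cd8a (33.4) was close to its value in wild-type replicate 1 (31.7), and Trac was highest in wild-type replicate 1. Cd4 (170) was below every wild-type library (200 to 287). Whether that library held more T cells, and their part in the Igkv values, was not tested.

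The whole pattern of shares was compared between libraries by the part of the signal that 2 libraries have in common, which is the sum over genes of the smaller of both shares. It was 67.8% to 74.1% between wild-type libraries (median 69.6%), 71.7% to 75.3% between PROSER1 KO libraries (median 74.3%) and 63.8% to 71.7% between the groups (median 66.9%). The range of the pairs across groups overlapped with that of the wild-type pairs. It also just reached that of the 3 PROSER1 KO pairs (highest 71.6775% across groups, lowest 71.6754% within PROSER1 KO). The pairs share libraries, so that no test was made. Without Igkv14-126 the medians were 65.5%, 70.1% and 60.7%.

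**Figure D3:**
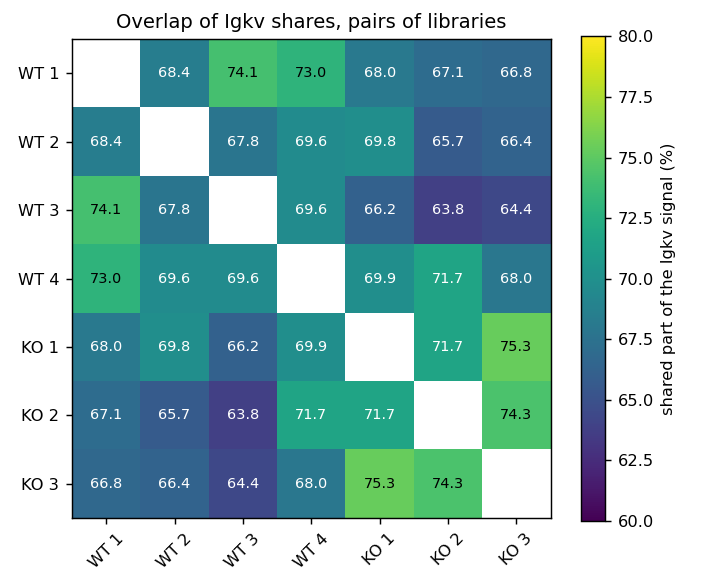
Shared part of the Igkv signal (%) for each pair of the 7 libraries, by colour and number. The lowest value, 63.8%, is between wild-type replicate 3 and PROSER1 KO replicate 2, and the highest, 75.3%, between PROSER1 KO replicates 1 and 3.

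The Igkv genes are spread over 3149 kb of chromosome 6, from 22.3 kb to 3170 kb from Igkc. The 80 genes nearest Igkc, of which 61 were members, held 47.4%, 38.3%, 39.5% and 48.0% of the signal in wild-type, against 49.1%, 41.7% and 41.0% in PROSER1 KO. Genes on the forward strand, 75 of 160, held 46.2% to 57.3%. Neither share set the groups apart. Igkv14-126 lies 2830 kb and Igkv1-135 3116 kb from Igkc, both in the distant part, whereas Igkv5-39 lies 825 kb away.

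**Figure D4:**
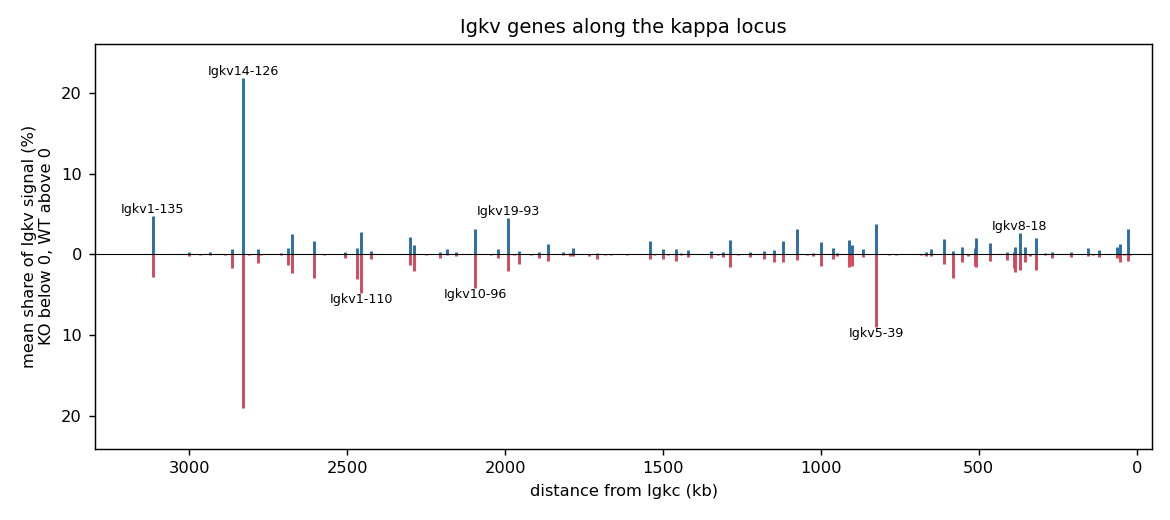
Mean share of the Igkv signal (%) of each member against its distance from Igkc (kb), with wild-type means drawn above 0 and PROSER1 KO means below 0. The largest bars, Igkv14-126 at 2830 kb and Igkv5-39 at 825 kb, stand in different parts of the locus, and most members are under 1%.

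By family, all 20 Igkv families had at least 1 member, and family 14 was largest, at 19.8% to 29.4%, mostly from Igkv14-126. Family 4, the largest by number with 31 members, held 8.19% to 16.1% in wild-type and 9.93% to 11.4% in PROSER1 KO. Family 5, which holds Igkv5-39, was at 4.65%, 6.80%, 6.48% and 8.42% in wild-type, against 11.0%, 12.4% and 12.7% in PROSER1 KO, and the groups did not overlap. Without Igkv5-39, its other 4 members held 1.84% to 3.77% in wild-type and 1.65% to 4.38% in PROSER1 KO, with overlap. Family 15, which had 1 member, Igkv15-103 (0.937% to 1.39% and 1.54% to 2.69%), was also higher in every PROSER1 KO library, and family 13 (0.465% to 1.63% and 0.215% to 0.360%) lower. In family 13, Igkv13-84 held 1.58% and 1.20% in wild-type replicates 3 and 4 but 0.240% and 0.126% in wild-type replicates 1 and 2. By itself Igkv13-84 overlapped between the groups (0.0446% to 0.241% in PROSER1 KO). In the other 17 families the groups overlapped.

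Between wild-type and PROSER1 KO, the levels were tested by limma after taking log2(normalized count + 1), in all 16251 genes with a mean of at least 10. Of the 117 members, 100 passed this filter, and 2 of them, both higher in PROSER1 KO, passed the thresholds (adjusted p under 0.05, fold over 1.5). Of all tested genes, 0.258% were called, 0.123% higher and 0.135% lower. The groups did not overlap in 7 of the 100, against 10% of all tested genes. Of the 100, 19 had an unadjusted p-value under 0.05, against 9.73% of all tested genes, and this excess depended on the variance model. It was 11 against 9.38% without the mean-variance trend and 9 against 9.74% with robust variance estimates. The median log2 fold change of the 100 was -0.14, against 0.0015 over all tested genes, and it turned to 0.17 without wild-type replicate 4, to 0.11 without PROSER1 KO replicate 2 and to 0.0082 without PROSER1 KO replicate 1, and was -0.46 without wild-type replicate 3, -0.010 without wild-type replicate 1 and -0.34 without PROSER1 KO replicate 3. Of the called members, edgeR on the recovered read pairs also called both (background 0.253%), and DESeq2 called 4 members (background 0.873%).

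Igkv4-80 had normalized counts of 455, 682, 830 and 996 in wild-type, against 1689, 2261 and 3120 in PROSER1 KO. Each PROSER1 KO library was higher than each wild-type library (limma, log2 fold change 1.68 ± 0.27 SE, adjusted p = 0.0418). The call was lost without wild-type replicate 1 (adjusted p = 0.0560), 2 (0.120) or 3 (0.0637) and without PROSER1 KO replicate 2 (0.147) or 3 (0.182). It was also lost without the mean-variance trend (0.201), with robust variance estimates (0.197) and at a minimum mean of 50 (0.0579). Scaled to the Igkv total or to Jchain, limma gave adjusted p = 0.0493 and 0.0552. Its closest relative, Igkv4-57, was at 1639 to 3285 in wild-type and 1438 to 7111 in PROSER1 KO, with overlap.

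Igkv4-81 passed the filter on low values only through the PROSER1 KO libraries, and without the filter its adjusted p from limma was 0.00276. The gene, a neighbour of Igkv4-80, was at 0, 0, 0 and 4.64 in wild-type, against 1189, 180 and 241 in PROSER1 KO (limma, adjusted p = 0.00464, and 0.0566 if the variance trend is left out). The wild-type mean, 1.16, lay under the limit of 3 read pairs, and the fitted log2 fold change of 7.92 depends on the pseudocount. Its closest relative, the pseudogene Igkv4-75, was at 10.2 in PROSER1 KO replicate 2 and at 0 elsewhere. At most 0.286% of the Igkv signal of a library came from Igkv4-81.

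The other 2 genes called with DESeq2 were lower in PROSER1 KO. Igkv4-74 had 10869, 8708, 5152 and 4259 in wild-type, against 2491, 2809 and 1090 in PROSER1 KO, without overlap (limma, log2 fold change -1.78 ± 0.38 SE, adjusted p = 0.135 and 0.0171 from DESeq2). By share of the Igkv signal it overlapped (0.556% to 2.23% and 0.205% to 0.788%), and scaled to the Igkv total or to Jchain limma gave adjusted p = 0.349 and 0.363. The pseudogene Igkv4-73 had 11.5 to 108 in wild-type and 5.92 to 20.2 in PROSER1 KO, with overlap (adjusted p = 0.425 from limma and 0.0315 from DESeq2). Both V exons are close to each other (94.2% identity from Igkv4-74 to Igkv4-73).

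Igkv5-39 was the second largest member in all 3 PROSER1 KO libraries. It stood at 13718, 15640, 12115 and 35634 normalized counts in wild-type, against 38625, 32932 and 44072 in PROSER1 KO. Wild-type replicate 4, the library with the most Igkv signal, lay above PROSER1 KO replicate 2, so that the levels overlapped (limma, log2 fold change 1.13 ± 0.32 SE, adjusted p = 0.259). Leaving out wild-type replicate 4 gave an adjusted p of 0.00240 from limma. Leaving out any other single library gave 0.355 (wild-type replicate 3) to 0.544 (PROSER1 KO replicate 3), and DESeq2 on all libraries gave 0.512. The shares did not overlap, at 2.81%, 3.73%, 3.92% and 4.65% in wild-type, against 9.30%, 9.24% and 8.29% in PROSER1 KO (3.78% ± 0.756, SD, n = 4, and 8.94% ± 0.567, SD, n = 3). With the Igkv values scaled to the same Igkv total in each library, an alternative added after values had been seen, limma gave a log2 fold change of 1.26 ± 0.14 SE (adjusted p = 0.00591), and scaled to the same Jchain level 1.31 ± 0.16 SE (adjusted p = 0.0103). Its closest relative, Igkv5-45, held 0.0396% to 0.248%, with overlap.

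Igkv1-135 moved the other way among the large genes. It held 4.60%, 5.34%, 3.85% and 5.01% in wild-type, against 2.48%, 2.57% and 3.37% in PROSER1 KO, and each PROSER1 KO library was lower. Its normalized counts, 11916 to 38401 and 9175 to 17902, overlapped (limma, log2 fold change -0.88 ± 0.35 SE, adjusted p = 0.455). Scaled to the Igkv total, limma gave -0.75 ± 0.13 SE (adjusted p = 0.0523), and scaled to Jchain -0.70 ± 0.12 SE (adjusted p = 0.0488).

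Igkv8-28, named after its values were seen, had normalized counts of 1444, 2420, 1444 and 4774 in wild-type, against 7193, 6075 and 27302 in PROSER1 KO. Every PROSER1 KO library was higher, but the level did not pass the test (limma, log2 fold change 2.26 ± 0.55 SE, adjusted p = 0.191). From edgeR the adjusted p was 0.197 and from DESeq2 0.0599. Only the scaled fits, added after values had been seen, called Igkv8-28. Their adjusted p-values from limma were 0.0428 (scaled to the Igkv total) and 0.0400 (scaled to Jchain), and as the gene was named with values known, they are no separate support. Its V exon is 97.8% identical to that of Igkv8-19, so that its values are uncertain. Igkv8-19 was at 22720 in PROSER1 KO replicate 1, whereas Igkv8-28 was highest in PROSER1 KO replicate 3. In all, the shares of 13 of the 100 tested members did not overlap between the groups, 10 of them higher and 3 lower in PROSER1 KO, a scale on which the other genes have no counterpart. The 3 lower ones were Igkv1-135, Igkv1-99 and Igkv14-130. By level the groups did not overlap in 7 of the 100, against 10% of all tested genes. Shares within a library add up to a fixed total, so that a rise of some lowers others and the 13 are not separate results.

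**Figure D5:**
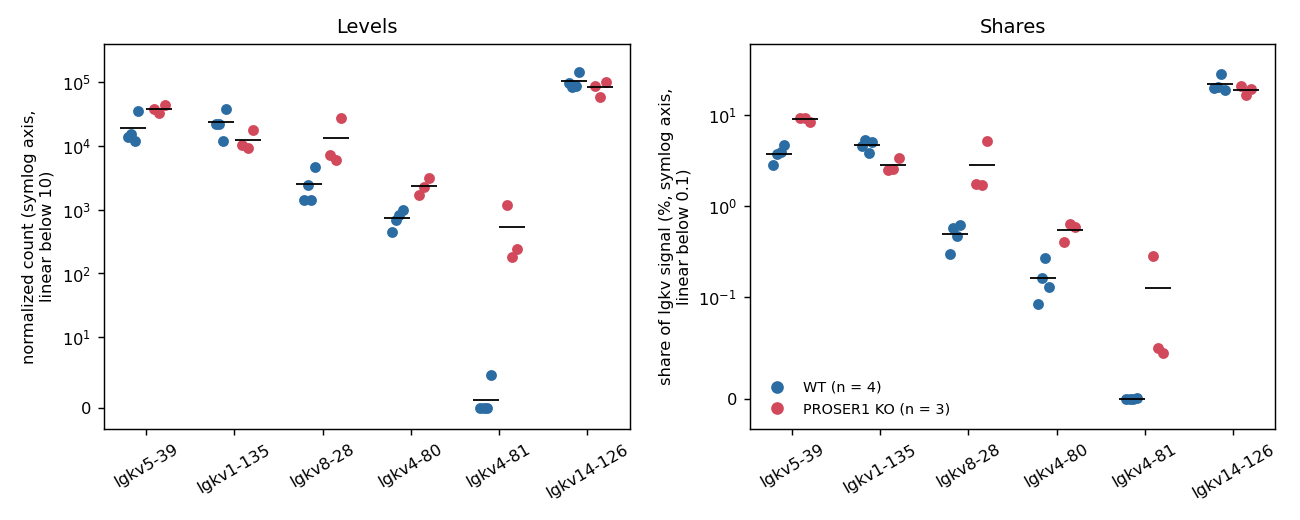
Normalized counts (left) and shares of the Igkv signal in % (right) of 6 members in each library, on axes that are linear near 0 and logarithmic above, with the group means as short lines. Igkv5-39 overlaps between the groups by level through wild-type replicate 4 (35634) but not by share, and Igkv14-126 overlaps in both.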

How the data were processed

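Paired-end RNA-seq of sorted LSK cells gave 7 libraries. The authors used Trimmomatic for trimming, STAR for alignment to mm10 (GRCm38.p6), featureCounts for counting and DESeq2 for size factors. Their test of expression was also DESeq2, at default settings, so that the DESeq2 alternative given here is the closest to it. In the fits made here, DESeq2 called 165 of 18903 tested genes and limma 42 of 16251. What the authors deposited is a normalized signal per gene, the count over the size factor of its library. The header of the deposited table and the methods name different GENCODE releases, and the settings for strand and for reads with several matches are not given in the sources used here, which bears on Igkv genes of like sequence. Whole read pairs were recovered for 100% of values within 0.01 read pairs. No column was left unmapped.

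Groups were compared in R 4.3.3 with limma 3.58.1 (eBayes with trend) on log2(normalized count + 1), with a minimum mean of 10 and Benjamini-Hochberg adjustment over all genes, and a gene was called at an adjusted p under 0.05 with a fold over 1.5. On this scale, changes of low genes are understated. Alternatives were edgeR 4.0.16 (quasi-likelihood) and DESeq2 1.42.0 on recovered read pairs, other pseudocounts, filters, normalizations and variance models, no fold change minimum, a replicate block and each library left out. The exact permutation tests planned for sums and indices over the Igkv genes were left out, and these are described by library only. Nothing in the labels says how many animals gave a library, so that p-values measure the spread between these libraries. Genes named were the 3 largest Igkv genes of any library and those called by limma, edgeR or DESeq2, and others are said to be chosen after their values were seen. The members, the lists and the tests were chosen with earlier results of these data known. Ighv11-2, Ighv12-3, Xist and Ddx3y were added after values had been seen. V exons and positions come from GENCODE M21, in which all 160 Igkv genes were matched, and each exon was aligned to every other Igkv exon. The procedure was tested on simulated counts with a common spread for all genes. That spread was smaller than that of the Igkv genes within a group, so that the simulation does not show how the test performs on them. Intervals from the limit of 3 read pairs cover counting error only.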

Additional observations from a re-analysis of the deposited data

Results flagged for a closer look

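In 2 of 19 Igkv values examined, 1 of the 4 wild-type libraries stood far from the other 3. Chance flags about 1 in 20 such values, but this rate does not apply to Igkv4-81, where 3 libraries at 0 fix the outcome for any value of the fourth. Both concern wild-type replicate 4. Igkv5-39 had 35634 normalized counts there and 12115 to 15640 in the other wild-type libraries. Its adjusted p-value from limma was 0.259 with all libraries and 0.00240 without wild-type replicate 4. Without any other single library it was 0.355 to 0.544. Wild-type replicate 4 also had the highest Igkv sum (766286), Jchain (384345) and Xist (3003), and their part in this was not tested. Igkv4-81 had 4.64 normalized counts (4.6371 before rounding) in that library, where the other 3 had 0, a value close to the limit of 3 read pairs.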

How the results depend on the processing

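The number of Igkv genes called (2 with limma as described) was also 2 at pseudocounts of 0.1 and 10, without a filter, with TMM or quantile normalization, without a fold change minimum and with edgeR. It was 1 at a minimum mean of 50, 1 with robust variance estimates, 4 with DESeq2, and 0 with limma without the mean-variance trend, where 11 of the 100 had an unadjusted p-value under 0.05 (9.38% of all tested genes). Scaling the Igkv values to the same Igkv total, or to the same Jchain level, gave 4 each (both chosen after seeing the data). With single libraries left out it was 1 to 3. Igkv3-2 and Igkv8-34 were called without wild-type replicate 2, Igkv4-90 without wild-type replicate 3 and Igkv5-39 without wild-type replicate 4. Igkv4-81 was called in all 7 of these fits (adjusted p 0.00240 to 0.0330). Its wild-type values of 0, 0, 0 and 4.64 hardly change when 1 library is left out, so that these fits add no support. In limma without the mean-variance trend its call was lost (adjusted p = 0.0566). With the replicate number as a block, 7 Igkv genes were called, but the numbers do not pair the libraries (correlations of the deviations of same-numbered libraries 0.0226, 0.0575 and -0.106). The log2 ratio of the Igkv sum to Igkc differed by -0.00053 between the groups (PROSER1 KO minus wild-type), and by 0.23 with the Igkj genes as denominator. The log2 Igkv sum differed by -0.13, and by -0.33 to 0.11 with single libraries left out. The causes were not tested. Neither of the 2 called genes changed direction under any of these alternatives. For both, each PROSER1 KO library was above each wild-type library. Leaving out a library or changing the pseudocount, filter or variance model could therefore not reverse them, and the unchanged direction is no support.

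Depth is not limiting for the large genes, whereas members near 3 read pairs cannot be told from 0. With 4 and 3 libraries, the spread of single Igkv genes within a group sets what the test can show.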
